A study of Arabidopsis thaliana with 6 samples.

Results

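Of the 30509 genes measured in germinated Arabidopsis seeds, 70 gave a bright signal that stayed at nearly the same level whether or not the seeds had been incubated in polyethylene glycol (PEG), an osmoticum that withdraws water. A gene was taken as bright when its mean log2 signal was at least 6.8 both in the 3 untreated, desiccation-sensitive samples (DS) and in the 3 PEG-incubated, desiccation-tolerant samples (DT), and as steady when the means differed by less than 0.15. A log2 difference of 0.15 is a 1.11-fold difference. The rule found 227 bright genes, 0.744% of all genes, of which 70 (30.8%) were steady, 114 were lower in DT and 43 were higher in DT. The 70 genes were selected on their measured group means and on the DT minus DS difference, so the smallness of that difference is a description and no finding.

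The seeds were of accession Columbia (Col-0). All seeds had 72 h of cold stratification at 4°C, then germinated at 22°C in constant white light, and were taken at radicle protrusion (stage II). DS seeds were used at once, and DT seeds after a further 3 d in the dark at 22°C on PEG at -2.5 MPa followed by rinsing in water. Each group had 3 biological replicates of pooled whole germinated seeds, with 1 SNPtile array each, so 6 arrays in all. Darkness and the 3 d since germination went together with PEG, and their effects cannot be told apart from that of PEG. Whole seeds hold embryo and endosperm, and in such bulk samples fewer cells of a type and less RNA per cell cannot be told apart.

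A germinating seed builds proteins on its cytosolic ribosomes, which consist of ribosomal RNA and a large set of ribosomal proteins, most of them encoded by several gene copies in Arabidopsis. It lives on its stored oil until photosynthesis starts. The oil is broken down in peroxisomes by beta-oxidation, and the glyoxylate cycle, with isocitrate lyase and malate synthase as its own enzymes, turns the resulting acetyl units into precursors of sugar.

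The steady genes were sorted by role by hand after the values had been seen, with 9 of them left without a stated role. The cytosolic ribosome had the most members with 19 genes, followed by 7 translation factors and partners, 6 genes of protein folding and turnover, 6 of signalling, redox or RNA binding, 5 of mitochondrial respiration, 4 of the peroxisome and glyoxylate cycle, 3 of the organellar ribosome and chaperonin and 2 actins. A further 9 belonged to other metabolism and transport. In DT, 32 of the 70 were higher and 38 lower, with a median difference of -0.01 on the log2 scale, where the median was -0.02 over all genes and -0.15 over the bright genes. The median size of the difference was 0.067, or 1.05-fold, and 25 genes differed by less than 0.05.

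**Figure D1:**
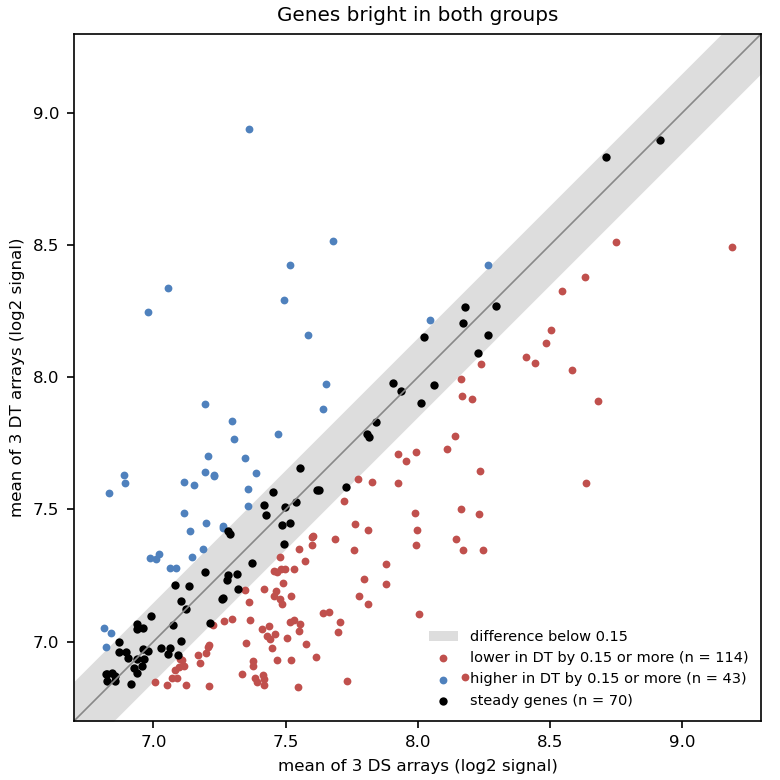
Mean log2 signal of the 227 bright genes in DS (x axis, 3 arrays) and DT (y axis, 3 arrays), 1 point per gene. The 70 steady genes (black) lie by construction inside the grey band of differences below 0.15, with 114 genes lower in DT (red) below it and 43 higher in DT (blue) above it.

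A small mean difference does not by itself bound the true difference, so each gene was read with the 95% interval of the limma fit, a linear model per gene with variances moderated across all genes. The interval lay wholly within 0.15 of no difference for 8 of the 70 genes, within 0.25 (1.19-fold) for 50, as it did for 47% of all genes and 22% of the bright genes, within 0.5 for 68 and within 1 for all 70. Its half-width ran from 0.0994 to 0.463 with a median of 0.143. At a Benjamini-Hochberg adjusted p of 0.05 over all genes, limma called 0 of the 70, where 29.9% of all genes and 54.2% of the bright genes were called, and 7 had an unadjusted p of at most 0.05. With each array first centred on its median, 6 of the same 70 genes passed the adjusted threshold, all as higher in DT (ICL, CSY3, CAT2, SKP1, AT1G76200 and AT1G09640). With quantile normalization repeated on the gene values 13 passed, namely RACK1A, RPS21, RPL3, RPL7a and RPS19 as lower and RPL36, RPS3a, MPK17, AT1G09640, AT1G76200, AT5G07960, AT5G17190 and AT5G20950 as higher. The sign of the difference was the same under both rescalings for 48 of the 70 genes. The 3 DT arrays lay all on 1 side of the 3 DS arrays in 14 of the 70 (8 higher, 6 lower in DT), against 42.4% of all genes and 69.2% of the bright genes. The rule used the same contrast, so nothing is read from these shares.

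At the edges of the rule, RSR4, a subunit for vitamin B6 synthesis, and AT3G02080, a ribosomal protein of the S19e family, were just inside with differences of -0.142 each. Just outside lay AT5G08670, an ATP synthase subunit, at -0.152 and the carboxylesterase CXE12 at 0.156. On the side of brightness, phospholipase D alpha 1 (PLDALPHA1, 6.82 in DS) and the asterix-like AT5G07960 (6.82 in DS) were just inside. AT1G69510 (6.76) and AT3G09735 (6.75) fell just short in DS.

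The rule required group means of at least 6.8, so the signal of the 70 genes lay well above background by construction. The means over 6 arrays ran from 6.84 to 8.91 with a median of 7.22, and every array value of every steady gene was above 4.93, the 95th percentile of the means of 2862 annotated pseudogenes. Signals of different genes come from different probes, so they are not compared here as amounts of RNA. A small difference was common among dim genes, since 78.1% of genes whose lower group mean was under 4.5 differed by less than 0.15. The share was 27.0% for a lower mean between 6 and 6.8, 28.7% between 6.8 and 7.5 and 37.7% from 7.5 upwards, and over all genes it was 61.5%.

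Replicates of the steady genes were spread more widely in DT than in DS. The median SD was 0.0468 in DS and 0.0875 in DT. It was 0.0594 and 0.0916 for the other bright genes, and 0.0616 and 0.0701 for all genes. The DT value was the larger in 54 of 70 genes, in 106 of the other 157 bright genes and in 17079 of all 30509 genes. DT replicate 1 was the lowest of the 3 DT arrays in 55 of the 70 genes, with a median deviation of -0.083 from the group mean, in 115 of the other 157 bright genes and in 45.8% of all genes. Without that array the rule found 77 genes, 61 of them among the 70. Across genes, DS arrays correlated with each other at 0.972 to 0.977 and DT arrays at 0.957 to 0.975, and a DS with a DT array at 0.798 to 0.819.

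Markers of tissues were checked beside these values. Of 3 endosperm markers, EXPA2 and MAN7 were higher in DT and 0 were lower at limma's adjusted p of 0.05, and the summed linear signal of the list ran from 213 to 257 in DS and from 301 to 406 in DT. Of 3 markers of the germinating embryo axis, GA3OX2 and TIP1-1 were lower and 0 higher, and the summed signal ran from 334 to 354 in DS and from 168 to 190 in DT. All 4 flower and anther markers, which whole seeds should lack, had group means of 4.37 to 4.72, below the pseudogene limit. Markers of both tissues thus moved between DS and DT, and the part of tissue make-up in the values of the steady genes was not tested.

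The ribosome had the most steady genes and also the most genes that were lower in DT. By words in the gene descriptions, 81 of the 227 bright genes were ribosomal, of which 21 (25.9%) were steady, 58 were lower in DT and 2 higher. Outside the ribosome, 49 of 146 bright genes (33.6%) were steady, 56 lower and 41 higher. The median difference was -0.22 over the bright ribosomal genes and -0.04 over the other bright genes. The words also caught organellar ribosomal proteins and elongation factors, and missed some cytosolic ones. Sorted by hand after the values were seen, 71 bright genes were cytosolic ribosomal proteins, with 18 steady, 52 lower and 1 higher, and 42 of them passed limma's adjusted p of 0.05 as lower and 0 as higher, where 40.5% of all bright genes passed as lower and 13.7% as higher. With arrays centred on their medians, 29 of 83 bright ribosomal genes were steady and 50 lower, and with repeated quantile normalization 25 of 84 were steady and 56 lower, so that lower genes were the larger number under each scaling.

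Among the 18 steady cytosolic ribosomal protein genes, 12 belonged to the large and 6 to the small subunit. The gene for RPS21 (AT5G27700, chromosome 5, 9807236 to 9808513 on the minus strand in TAIR10.1), a small-subunit protein, read 8.29, 8.20 and 8.31 in DS and 8.07, 8.15 and 8.27 in DT. The groups overlapped, and the difference was -0.10 (95% interval -0.25 to 0.04). With repeated quantile normalization it was -0.21 and passed as lower (adjusted p = 0.00682 in limma). RPS2 (AT2G41840), placed near the decoding site of the small subunit, read 8.03, 7.97 and 8.06 in DS and 8.002, 8.23 and 8.22 in DT, a difference of 0.13 (interval -0.03 to 0.29). DT replicate 1 lay among the DS arrays here, and the other DT arrays above them.

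For RPL3 (AT1G43170), a large-subunit protein near the peptidyl transferase centre, the DS arrays gave 8.05, 8.01 and 8.13 and the DT arrays 7.90, 8.03 and 7.98, with a difference of -0.09 (interval -0.22 to 0.04), which became -0.19 after repeated quantile normalization (adjusted p = 0.0138 in limma). RPL7a (AT3G62870) had the least replicate spread of the ribosomal group. Its DS arrays read 7.996, 8.01 and 8.04 and its DT arrays 7.89, 7.86 and 7.96, so the groups did not overlap although the difference was only -0.11 (interval -0.22 to -0.0036). After repeated quantile normalization it was -0.18 (adjusted p = 0.0224 in limma). RPL15 (AT4G16720) gave 7.86, 7.82 and 7.85 in DS and 7.69, 7.90 and 7.91 in DT, with means of 7.84 and 7.83. AT3G18740, whose description is a ribosomal protein of the L7Ae/L30e family although the annotation gives it the symbol RLK902, had means of 7.12 in both groups.

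Among the other ribosomal members were RPSA, RPS13, RPS19, RPS3a, RPL9, RPL10a, RPL16B, RPL18, RPL24, RPL36 and the stalk protein RPP0. The scaffold protein RACK1A (AT1G18080), which sits on the small subunit and also binds signalling proteins, was counted with them. It read 8.25, 8.21 and 8.22 in DS and 8.02, 8.18 and 8.08 in DT, so all DT arrays were lower, by 0.14 on average (interval of the difference -0.26 to -0.01). Its adjusted p of 0.0984 from limma was the smallest among the 70 genes. With quantile normalization repeated on the gene values the difference was -0.25 and passed as lower (adjusted p = 0.00315). Over the 19 genes of this role, differences ran from -0.14 to 0.13 with 8 higher and 11 lower in DT.

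**Figure D2:**
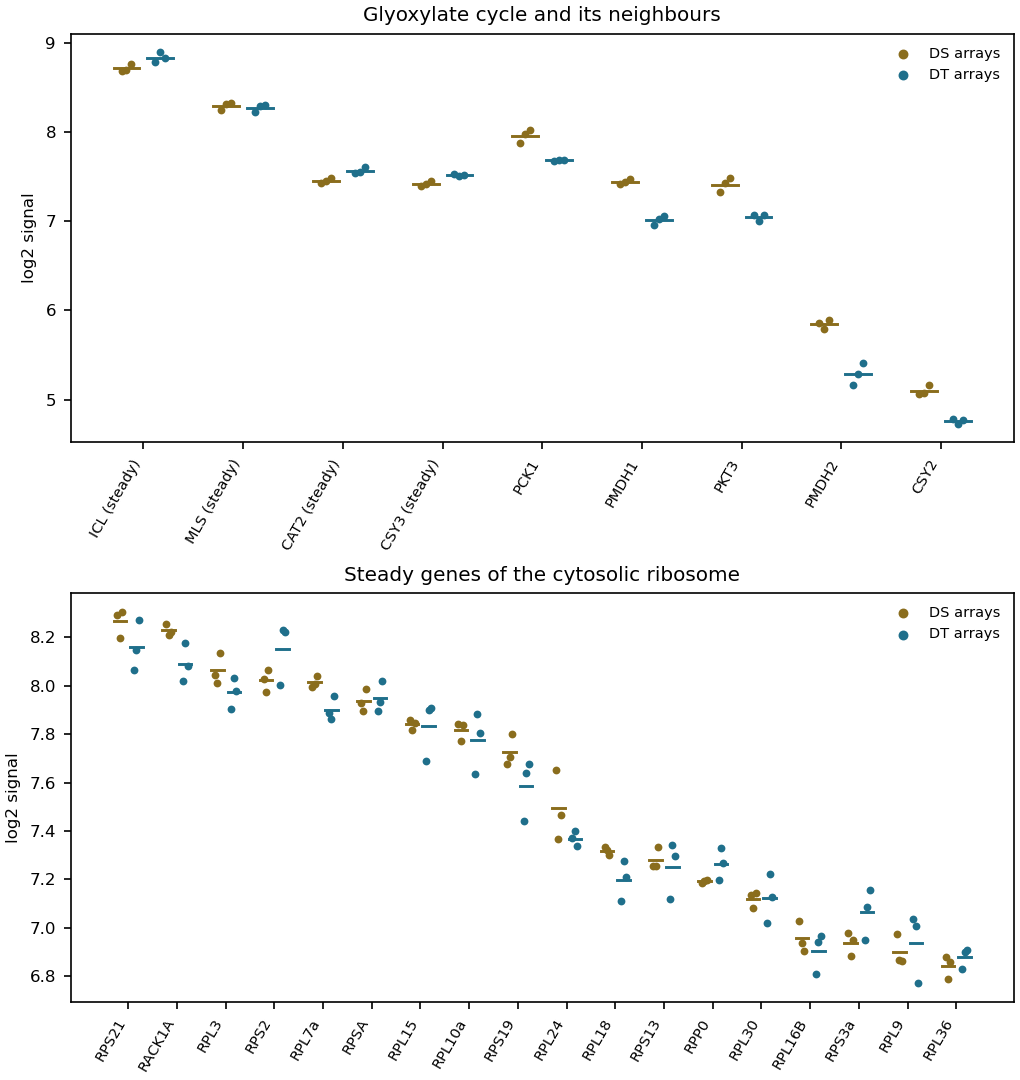
Log2 signal on each array (points) and group means (lines) for DS (brown) and DT (blue), upper panel for 9 genes of the glyoxylate cycle and its neighbours, lower panel for 18 of the 19 steady genes of the cytosolic ribosome. ICL, MLS, CAT2 and CSY3 are steady by the rule, though all DT arrays of ICL, CAT2 and CSY3 lie above the DS arrays, and PCK1, PMDH1, PKT3, PMDH2 and CSY2 are lower in DT.

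Upstream sequences of the translation genes are shown because promoters of plant ribosomal protein genes are known for carrying site II elements (TGGGCC, or its variant TGGGCT) and telo boxes (AAACCCTA). The 250 bases before the annotated transcript start were read from the RefSeq TAIR10.1 genome for 68 steady genes, each written 5′ to 3′ on the strand of the gene. RPS21 lies behind chr5:9808514-9808763 (minus strand), RPL36 (AT3G53740) behind chr3:19915009-19915258 (minus strand) and the elongation factor eEF2 (AT1G56070) behind chr1:20971743-20971992 (minus strand). Windows end at the start of a single transcript per gene, so some, that of MLS among them, reach into the annotated gene. The gene of RPL36 is annotated up to base 19915066, so the telo box and the AGCCCA match of its window lie inside the gene. Capitals mark matches on either strand to these motifs, to the core of a TATA box (TATAAA) or to the core of the abscisic acid response element (ACGTG), and matches to different motifs were counted also where they overlapped.
RPS21: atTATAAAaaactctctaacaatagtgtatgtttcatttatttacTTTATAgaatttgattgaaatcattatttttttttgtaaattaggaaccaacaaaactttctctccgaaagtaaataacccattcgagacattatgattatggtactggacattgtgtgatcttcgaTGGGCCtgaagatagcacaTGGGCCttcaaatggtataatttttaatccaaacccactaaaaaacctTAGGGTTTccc
RPL36: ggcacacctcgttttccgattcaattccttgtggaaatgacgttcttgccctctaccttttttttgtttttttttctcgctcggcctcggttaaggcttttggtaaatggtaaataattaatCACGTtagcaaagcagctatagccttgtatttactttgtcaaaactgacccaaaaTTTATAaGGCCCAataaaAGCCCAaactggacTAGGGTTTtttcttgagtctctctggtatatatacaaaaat
eEF2: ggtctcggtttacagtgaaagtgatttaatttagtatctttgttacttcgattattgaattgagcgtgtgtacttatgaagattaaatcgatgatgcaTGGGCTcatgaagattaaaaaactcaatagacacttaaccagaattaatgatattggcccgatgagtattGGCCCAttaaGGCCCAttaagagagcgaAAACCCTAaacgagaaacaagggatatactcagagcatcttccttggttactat

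These 3 windows were chosen because they held site II elements together with a telo box. The window of the eEF1A gene AT5G60390 held the pair too and is not shown. The pair was found in 5.88% of the steady genes, in 7.69% of the other bright genes and in 1.43% of all promoters searched. Among ribosomal genes it was found in 14.3% of the steady and 17.2% of the lower bright genes. Site II occurred in 45.6% of the 68 steady genes, in 47.4% of 156 other bright genes and in 19.7% of all 25955 promoters searched. The telo box occurred in 11.8%, 8.97% and 4.79%. Among ribosomal genes, site II was found in 71.4% of the steady and 75.9% of the lower bright genes, and the telo box in 28.6% and 18.97%. TATAAA stood in 44.1% of steady genes, 48.7% of other bright genes and 47.6% of all genes, and ACGTG in 22.1%, 22.4% and 23.4%. These are shares of letters in a short window and were not tested.

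Factors that act with the ribosome were steady in part. By words, 8 bright genes fell in the list of translation factors, of which 4 were steady and 4 lower. The lower ones included AT2G47780, a rubber elongation factor protein, which the words caught by its name only. The list also lacked eEF2, which the words placed with the ribosomal proteins. EIF4A1 (AT3G13920), the RNA helicase of translation initiation, read 6.85, 6.83 and 6.87 in DS and 6.76, 6.92 and 6.88 in DT, and both means were 6.85 (interval of the difference -0.13 to 0.12). NAA10 (AT5G13780), the catalytic subunit of the acetyltransferase that modifies nascent chains, read 6.96, 6.90 and 6.95 in DS and 6.88, 6.92 and 6.997 in DT, with means of 6.94 and 6.93. These were the smallest differences of the 70 genes. With quantile normalization repeated on the gene values they became 0.099 and 0.084.

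The translocase eEF2 gave 7.43, 7.39 and 7.46 in DS and 7.39, 7.53 and 7.51 in DT, a difference of 0.05. The eEF1A gene AT5G60390, for the factor that brings aminoacyl-tRNA to the ribosome, gave 7.25, 7.31 and 7.23 in DS and 7.14, 7.27 and 7.09 in DT, a difference of -0.10 (interval -0.23 to 0.04). Both genes for the gamma subunit of eEF1B, which recharges eEF1A, were steady but on opposite sides. AT1G09640 read 7.01, 7.09 and 7.15 in DS and 7.17, 7.25 and 7.23 in DT (difference 0.13), with no overlap, and passed as higher under both rescalings (adjusted p = 0.0328 and 0.0173 in limma). AT1G57720 read 7.12, 7.05 and 7.03 in DS and 6.91, 7.04 and 6.98 in DT (difference -0.09), with overlap. The poly(A)-binding protein gene PAB2 differed by 0.05.

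In plastids and mitochondria, 3 steady genes serve the making and folding of proteins. The plastid ribosomal protein gene SSR16 read 8.16, 8.16 and 8.19 in DS and 8.10, 8.22 and 8.30 in DT, a difference of 0.03. CPN60A, the alpha subunit of the plastid chaperonin, read 7.46, 7.54 and 7.55 in DS and 7.34, 7.55 and 7.46 in DT, a difference of -0.07. MRPL11, of the mitochondrial ribosome, differed by 0.02. The remaining 8 of 10 bright organellar ribosomal proteins were lower in DT, with 5 past limma's adjusted p of 0.05, where 40.5% of all bright genes passed as lower.

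For the glyoxylate cycle and the steps around it, 9 genes were listed after the values were seen, of which 4 were steady by the rule. ICL (AT3G21720, chromosome 3, 7652487 to 7656053), isocitrate lyase, read 8.68, 8.69 and 8.76 in DS and 8.78, 8.89 and 8.83 in DT. All DT arrays were higher, and the difference was 0.12 (interval 0.0032 to 0.24). MLS (AT5G03860, chromosome 5, 1032099 to 1034973), malate synthase, read 8.25, 8.31 and 8.33 in DS and 8.22, 8.29 and 8.30 in DT, with a difference of -0.02 (interval -0.14 to 0.09). The sign of both depended on the scaling, since repeated quantile normalization gave -0.09 for ICL and centring gave 0.02 for MLS.

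CSY3 (AT2G42790), a citrate synthase of the peroxisome, had the lowest replicate spread of the central carbon group. Its arrays read 7.39, 7.42 and 7.45 in DS and 7.53, 7.504 and 7.52 in DT, all DT arrays being higher, by 0.10 (interval 0.0008 to 0.20). CAT2 (AT4G35090), a catalase that removes the hydrogen peroxide of beta-oxidation and photorespiration, read 7.42, 7.45 and 7.48 in DS and 7.54, 7.55 and 7.60 in DT, a difference of 0.11 (interval 0.0063 to 0.22) without overlap. With arrays centred on their medians, ICL, CSY3 and CAT2 differed by 0.16, 0.14 and 0.15 and passed as higher in DT (adjusted p = 0.0384, 0.0335 and 0.0285 in limma).

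The other 5 genes of the list were lower in DT at limma's adjusted p of 0.05 under each scaling. As deposited, 19.9% of all genes and 40.5% of the bright genes were lower at that threshold. PMDH1, a peroxisomal malate dehydrogenase, read 7.42, 7.44 and 7.47 in DS and 6.96, 7.02 and 7.06 in DT, a difference of -0.43. PKT3, the thiolase of beta-oxidation, differed by -0.36, and PCK1, the phosphoenolpyruvate carboxykinase that leads from the cycle to sugar synthesis, by -0.27. PMDH2 (-0.56) and CSY2 (-0.34) were lower too, though outside the bright range. The 4 steady genes were selected for a small difference, so their contrast with these 5 is a description.

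The upstream windows of ICL and CSY3 are shown for their ACGTG matches, while those of MLS and CAT2 held 0 such matches. None of the windows of ICL, CSY3, MLS and CAT2 held a site II element or telo box, and neither did those of several translation genes, EIF4A1 and PAB2 among them. That of ICL is chr3:7656054-7656303 (minus strand) and holds 1 ACGTG. That of CSY3 is chr2:17806074-17806323 (minus strand) and holds 2 stretches of CACGTG, a palindrome that reads ACGTG on both strands and so counts as 4 matches. Capitals mark the matches as above.
ICL: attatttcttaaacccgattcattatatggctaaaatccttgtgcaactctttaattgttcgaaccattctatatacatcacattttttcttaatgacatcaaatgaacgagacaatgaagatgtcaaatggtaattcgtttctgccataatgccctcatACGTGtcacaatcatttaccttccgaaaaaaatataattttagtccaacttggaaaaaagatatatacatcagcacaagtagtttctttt
CSY3: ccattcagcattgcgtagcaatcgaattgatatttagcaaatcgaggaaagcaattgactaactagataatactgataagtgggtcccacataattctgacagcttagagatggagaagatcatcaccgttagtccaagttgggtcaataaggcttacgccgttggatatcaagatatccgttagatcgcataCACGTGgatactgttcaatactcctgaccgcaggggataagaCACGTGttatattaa

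Among genes of mitochondrial respiration, 4 of 10 bright genes by words were steady and 6 lower. The accessory subunits AT2G02510, AT2G42310 and AT1G76200 of complex I, the entry point of electrons from NADH, differed by -0.06, -0.14 and 0.11. AT2G42310 read 7.17, 7.18 and 7.28 in DS and 7.13, 6.997 and 7.09 in DT, below every DS array. AT1G76200 read 6.93, 6.90 and 6.98 in DS and 6.999, 7.07 and 7.07 in DT, above every DS array, so the subunits did not share a direction. mtACP2, a mitochondrial acyl carrier protein, read 7.53, 7.53 and 7.56 in DS and 7.45, 7.52 and 7.61 in DT, with means of 7.54 and 7.53. MGP1, a gene needed for pollen and coding for a subunit of the mitochondrial ATP synthase, differed by -0.06.

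Other steady genes served metabolism and transport. HOG1, S-adenosylhomocysteine hydrolase, which clears the by-product of methylation reactions, read 8.15, 8.20 and 8.18 in DS and 8.16, 8.34 and 8.30 in DT (difference 0.09, interval -0.04 to 0.23). GAPC2 (AT1G13440), a cytosolic glyceraldehyde-3-phosphate dehydrogenase of glycolysis, read 7.60, 7.59 and 7.66 in DS and 7.47, 7.64 and 7.61 in DT (difference -0.05, interval -0.18 to 0.09). The groups overlapped for both, and after repeated quantile normalization HOG1 differed by -0.05. ATNTT2, which imports ATP into plastids, differed by -0.02, and cICDH, a cytosolic isocitrate dehydrogenase that makes NADPH, by -0.03. AAE3, an acyl-activating enzyme that acts on oxalate, read 6.88, 6.92 and 7.08 in DS and 7.17, 6.94 and 7.05 in DT. The cell wall-related RGP2, which interconverts forms of UDP-arabinose, differed by -0.05 and the glycosyl hydrolase AT5G20950 by 0.11. PLDALPHA1, which hydrolyses membrane lipids, read 6.73, 6.86 and 6.87 in DS and 6.75, 6.98 and 6.90 in DT.

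In protein folding and turnover, the steady genes were the cyclophilins ROC1, ROC5 and ROC7, which catalyse the turning of proline bonds, the proteasome subunit PBD1, the proteasome-associated DSS1(I) and SKP1, an adaptor of ubiquitin ligases. ROC1 read 7.39, 7.37 and 7.35 in DS and 7.23, 7.30 and 7.35 in DT (difference -0.08). SKP1 read 7.55, 7.52 and 7.59 in DS and 7.64, 7.62 and 7.71 in DT, all DT arrays being higher, by 0.10. The other 4 differed by -0.10 (ROC5), -0.10 (PBD1), 0.01 (ROC7) and 0.05 (DSS1(I)), each with overlapping groups. By words, 4 of 8 bright chaperone genes were steady, 3 lower and 1 higher.

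Signalling, redox and RNA-binding members were CAM4, a calmodulin that binds calcium, the thioredoxin TRX3, the annexin ANNAT2, the mitogen-activated protein kinase MPK17, the haemoglobin HB1 and the glycine-rich RNA-binding protein CCR1. MPK17 read 6.79, 6.89 and 6.93 in DS and 6.97, 6.97 and 6.94 in DT (difference 0.09), with all DT arrays above the DS arrays. CAM4 differed by 0.14, TRX3 by 0.12, CCR1 by -0.05 and ANNAT2 by -0.07, with overlap between the groups. HB1 read 6.97, 6.68 and 7.03 in DS and 7.26, 6.67 and 6.95 in DT, and its interval of -0.29 to 0.41 leaves a wider range than that of most members.

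Of the 9 genes with no stated role, AT5G54215, described as a cysteine-rich protein, read 8.96, 9.04 and 8.74 in DS and 8.92, 8.77 and 9.01 in DT (difference -0.02, interval -0.23 to 0.19). AT5G32434 and AT4G06698, annotated as pseudogenes, had the largest replicate spread of all 70. AT5G32434 read 7.999, 8.01 and 7.71 in DS and 7.56, 7.97 and 8.41 in DT, and AT4G06698 read 6.99, 7.77 and 7.03 in DS and 7.33, 6.99 and 7.16 in DT. Their intervals reached from -0.38 to 0.52 and from -0.56 to 0.36, so a steady level was not shown for either. Their sequences matched 113 and 12 other stretches of the genome over at least 200 bases at 80% identity or more. Over all 70 genes, 35 had such a stretch elsewhere and 24 overlapped another annotated gene, and which probes could read more than 1 gene was not analysed here. The remaining genes without a role, AT1G16000, AT2G20820, AT4G30660, AT5G07960 and AT5G17190, differed by -0.01, -0.03, -0.02, 0.03 and 0.13. SMAP1, a small acidic protein linked to auxin response, read 7.51, 7.47 and 7.53 in DS and 7.36, 7.63 and 7.54 in DT (difference 0.01).

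**Figure D3:**
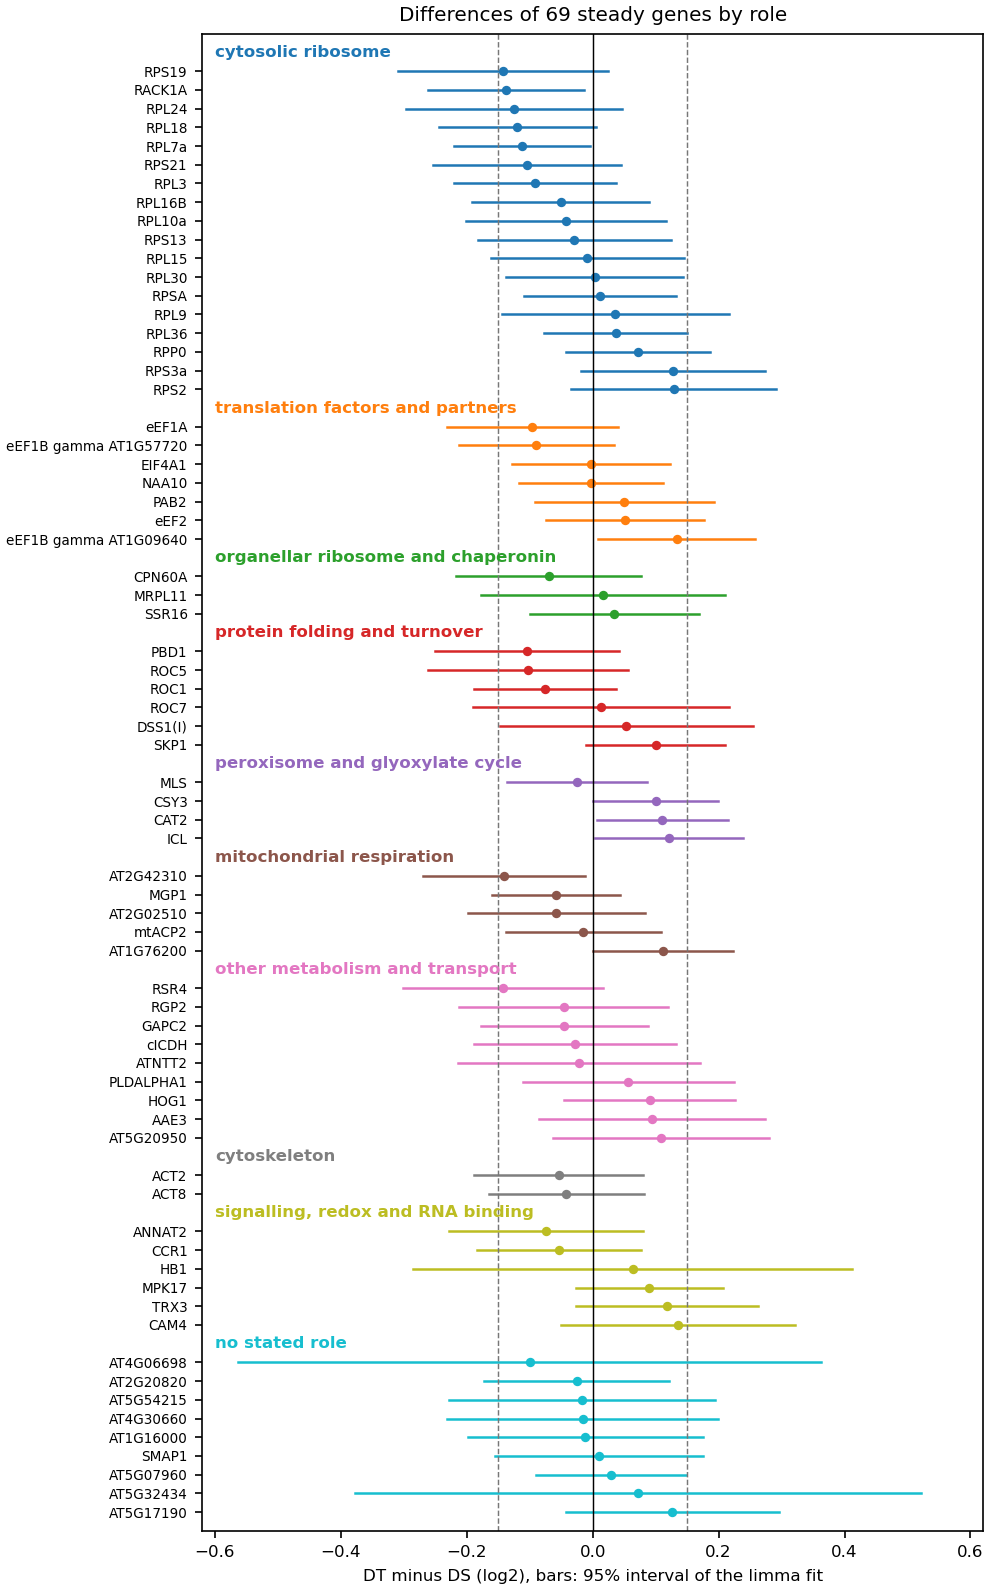
DT minus DS difference of the mean log2 signal (x axis) for 69 of the 70 steady genes, ordered by role, with 95% intervals from limma and dashed lines at -0.15 and 0.15. Points lie between the dashed lines by construction, and 8 intervals also do, while those of AT4G06698, AT5G32434 and HB1 are the widest.

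Genes used as standards in quantitative PCR were of interest, since a standard should not move. Of 30 such genes, 16 differed by less than 0.15, as did 61.5% of all genes, and 8 were bright. Steady and bright were 5 of them, namely ACT2, ACT8, the eEF1A gene AT5G60390, EIF4A1 and GAPC2. ACT2, a vegetative actin, read 6.96, 7.08 and 7.04 in DS and 6.88, 7.03 and 7.01 in DT (difference -0.05, interval -0.19 to 0.08). ACT8 read 7.40, 7.52 and 7.53 in DS and 7.49, 7.43 and 7.41 in DT (difference -0.04). Groups overlapped for all 5.

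The 3 bright standards that were lower in DT were GAPC1 (-0.77), UBQ5 (-0.33) and ACT7 (-0.20). Over the 30 genes limma called 9 lower and 2 higher at an adjusted p of 0.05, where 19.9% of all genes were lower and 9.97% higher, and it called 0 of the 30 at a log2 difference of 1, a call made for 2.22% of all genes. The lowest was APT1 at -0.83 (adjusted p = 1.59e-05 in limma) and the highest ILP1 at 0.65 (adjusted p = 7.41e-05), both dimmer than 6.8 in each group. UBQ10 missed the rule by brightness alone, with a DT mean of 6.73 and a difference of -0.07.

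Several steady genes had related copies that were not steady. In 10 groups of copies, put together after the values were seen, there were 13 steady genes and 13 other copies. The group of eEF1B gamma held steady genes only. Of the other copies, 11 were lower and 1 higher at limma's adjusted p of 0.05. Among all genes 19.9% were lower and 9.97% higher, and among the bright genes 40.5% and 13.7%. The other copies were by definition not steady, so each bright one had to differ by at least the limit of the rule. Neither pair of shares is therefore a like background for these counts. The steady genes were selected for a small difference and the groups with the values known, so the contrast with the copies is a description. With arrays centred on their medians, AT1G07940 and AT2G47610 no longer passed (adjusted p = 0.124 and 0.0678 in limma). After repeated quantile normalization AT2G47610 passed (adjusted p = 0.0163 in limma), but AT1G07940 did not (difference -0.06, adjusted p = 0.525 in limma). RACK1A differed by -0.14, but RACK1B read 6.90, 6.96 and 6.90 in DS and 5.90, 5.92 and 5.90 in DT (-1.01, interval -1.11 to -0.91). RACK1C differed by -0.99, and the coding sequences of these copies were 80.9% and 80.5% identical to that of RACK1A.

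Of the cytosolic glyceraldehyde-3-phosphate dehydrogenases, GAPC2 was steady, while GAPC1 read 8.61, 8.69 and 8.74 in DS and 7.97, 7.88 and 7.88 in DT (-0.77), at 89.9% coding identity. Among eEF1A genes, AT5G60390 differed by -0.10 and AT1G07920, AT1G07930 and AT1G07940 by -0.49, -0.39 and -0.17. The ribosomal S3Ae gene AT4G34670 differed by 0.13 and its copy AT3G04840 by -0.54, at 85.2% identity.

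A copy each of RPL15, RPL7a, the actins and the cyclophilins was lower as well. AT4G17390 (-0.29) stood beside RPL15, AT2G47610 (-0.22) beside RPL7a, ACT7 (-0.20) beside ACT2 and ACT8, and ROC3 (-0.24) beside ROC1 and ROC5. CCR1 differed by -0.05, and its relative GRP7, a clock-regulated RNA-binding protein, read 7.35, 7.69 and 7.996 in DS and 8.43, 8.56 and 8.56 in DT, higher by 0.84. The copies kept their sign under both rescalings, except ROC2, which differed by -0.0029 as deposited and by 0.13 after repeated quantile normalization. Differences between copies were set side by side and not tested, and signal shared between copies through common probes was not analysed.

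**Figure D4:**
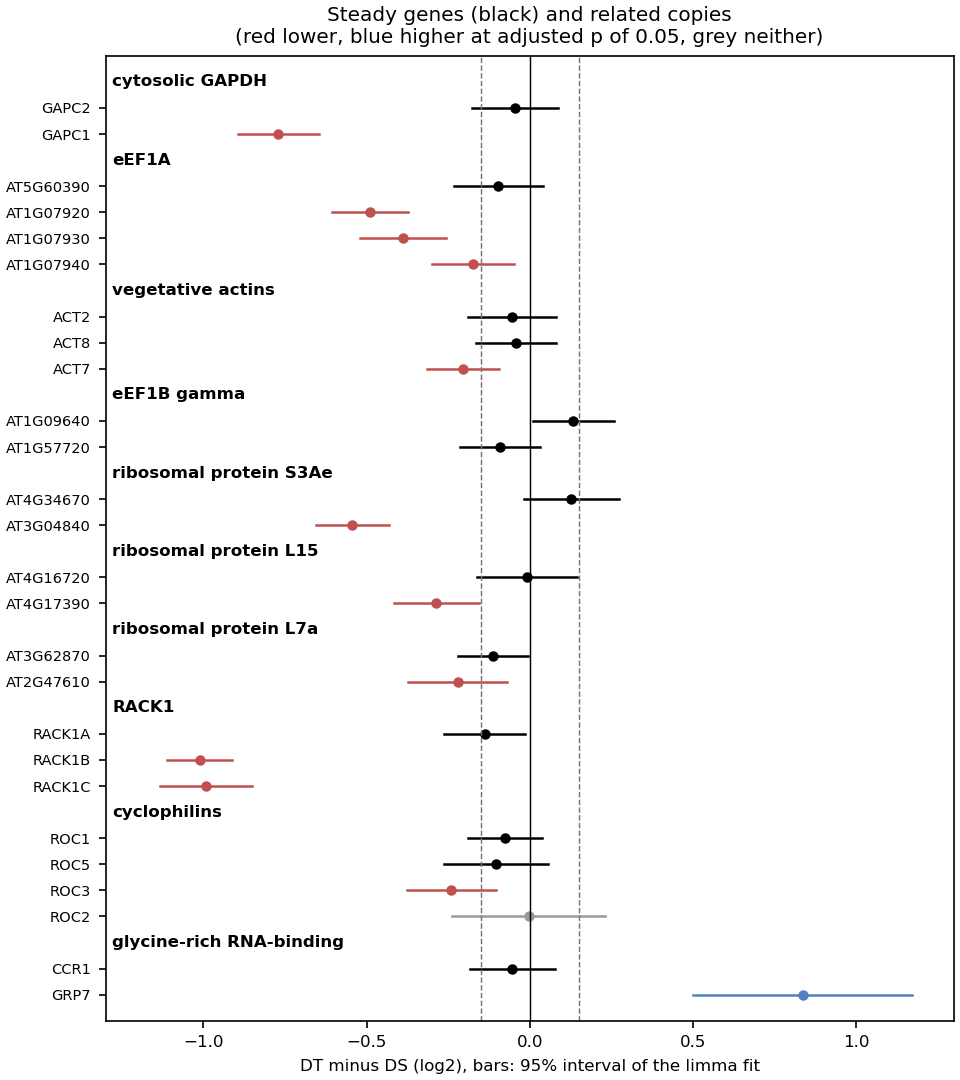
DT minus DS difference of the mean log2 signal (x axis) with 95% intervals from limma for 10 groups of related genes, with dashed lines at -0.15 and 0.15. Steady genes are black, and of their copies 11 are lower (red), GRP7 is higher (blue) and ROC2 is neither (grey).

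Function by function, no word list outside the ribosome held more than 11 bright genes. Glycolysis and citrate cycle had 5 steady of 11, signal transduction 4 of 5, lipid and membrane metabolism 3 of 5, redox 2 of 5, cytoskeleton 2 of 3 and amino acid and one-carbon metabolism 1 of 6. Photosynthesis (3 bright genes, all lower in DT), histones and transcription (6), cell wall (4), membrane traffic (3), seed maturation and stress proteins (2, both higher in DT) and proton pumps (1) had 0. The words also misplaced some steady genes. RSR4 was counted with glycolysis and citrate cycle, NAA10 with lipid and membrane metabolism, and AT5G17190, of no stated role, with signal transduction. These counts are too small to set against 30.8% of all bright genes, and 16 steady genes matched no word list.

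**Figure D5:**
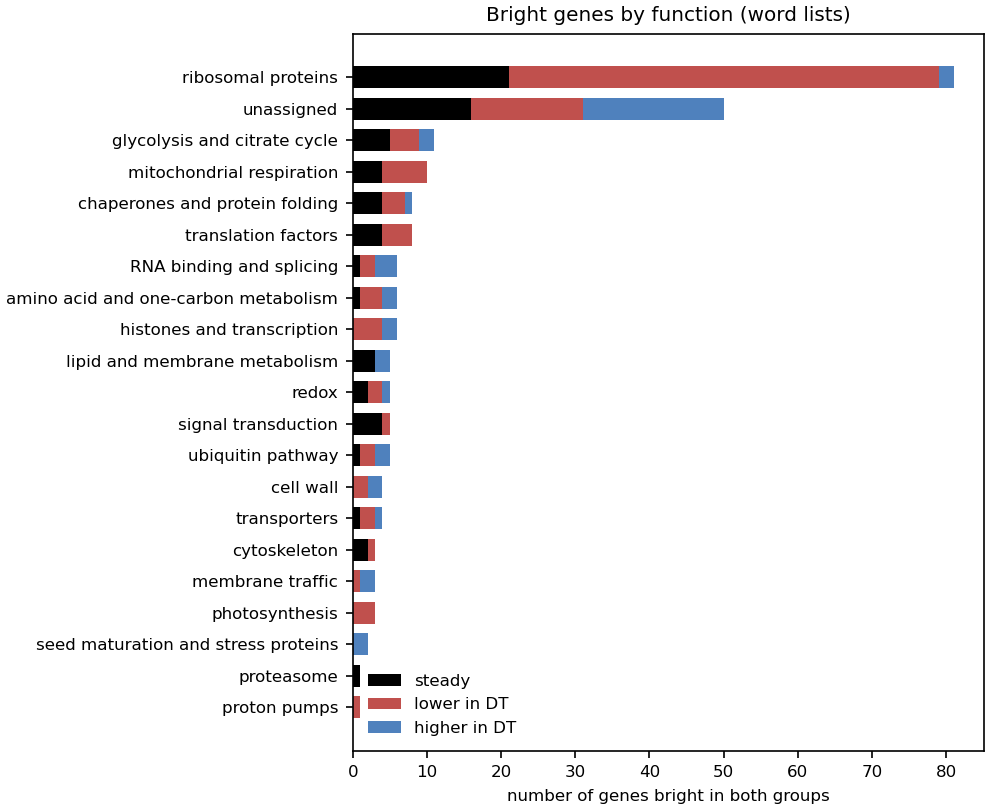
Number of bright genes (x axis) in each word list (y axis), divided into steady (black), lower in DT (red) and higher in DT (blue). Ribosomal proteins make up 81 of 227 genes, with 58 of them lower in DT.

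In the annotation, the median coding length and exon number of the steady genes were near those of the other bright genes. The median coding length was 615 bases for the 68 protein-coding steady genes, 597 for 156 other bright genes and 1065 for all 25956 protein-coding genes matched. Its upper quartile was 1234.5 for the steady and 941.25 for the other bright genes. Outside the ribosome the medians were 930 and 765. The median number of exons was 4, 3 and 4. Steady genes lay on all 5 chromosomes, with 17, 10, 13, 15 and 15 on chromosomes 1 to 5. Coding lengths and exons were not used by the rule, and were compared as descriptions with no test.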

How the data were processed

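RNA was measured in 3 DS and 3 DT samples, grouped by their labels, with 1 SNPtile array each. The authors extracted probe signals with an annotation based on TAIR 9, quantile-normalized them and deposited a single log2 value for each gene. The summary over probes and the background treatment are not given in the sources used here. Quantile normalization sets the values it is run on to like distributions, so a steady level is steady relative to the other genes, not per seed. The deposited gene values kept a small offset between the groups. Array medians were 4.76, 4.77 and 4.78 in DS and 4.72, 4.72 and 4.73 in DT.

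DT was compared with DS on the deposited log2 values by limma 3.58.1 under R 4.3.3, as a linear model without covariate and with moderated variances, with Benjamini-Hochberg adjustment over 30509 genes. A call at a log2 difference of 1 also needed an unadjusted p of 0.05. With 3 arrays in each group an exact permutation test cannot go below 0.1, so precision is limited by their number. On simulated data, all 200 changed genes were recovered with 0 others called. That run concerned the calling of changed genes only, so it cannot tell how well the rule picks out steady genes. Locus identifiers were matched to RefSeq TAIR 10.1 (30078 matched, 431 did not). Related stretches were searched with BLAST 2.17.0, and promoters with Python 3.11.15 and Biopython 1.88.

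The members and lists were chosen with earlier results of these data known, and roles, copies, the glyoxylate list and the hand-sorted ribosomal genes after the values were seen. Values were given for 42 genes by rule: the 10 steady genes of highest mean, the 5 smallest differences, the brightest and the least variable gene of each word list with at least 3 members, steady standards, the 5 largest SDs, the 5 smallest adjusted p and the genes beside each threshold. Other genes were named after their values were seen. Alternatives covered scaling, each array left out, the replicate block, the variance model, dim genes and the thresholds. Of the steady genes, 1 is counted but not reported by name here.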

Additional observations from a re-analysis of the deposited data

How the results depend on the processing

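Means of at least 6.5 in both groups gave 114 steady genes and means of at least 7 gave 44. A difference below 0.1 gave 48 and below 0.2 gave 95. Group medians gave 74, of which 63 were among the 70. Arrays centred on their medians gave 71 steady genes (59 shared with the 70), and quantile normalization repeated on the gene values gave 68 (51 shared). Of the genes steady in the centred data, 2 passed limma's adjusted p of 0.05, against 0 as deposited. Word lists with at least 3 steady genes numbered 7, and 4 after repeated quantile normalization. Leaving out 1 array gave 64 to 77 steady genes, the most without DT replicate 1. The median SD of the steady genes was 0.0784, and ran from 0.0506 (without DT replicate 1) to 0.0836 with 1 array left out. In all, 46 of the 70 genes were steady with each array left out, and 37 of these under both rescalings too. Among single genes named by rule, 313 values moved by less than the spread between replicates and 23 by more. None of these genes passed limma's adjusted p of 0.05 as deposited, so there was no called value whose sign could change. The sign of the difference changed under a rescaling for 22 of the 70 steady genes.

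Same-numbered DS and DT arrays deviated from their group means with correlations of 0.0612, -0.0103 and 0.104, so the numbers were not taken to pair the samples. With the replicate number as a block, 70 genes were steady, 679 of all genes were called and 8902 passed the adjusted p of 0.05, 0 of them steady, and 51 steady genes had an interval within 0.25.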
